A study of Mus musculus with 11 samples.

Results

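The 10 genes described here, Reln, Lrat, Rgs5, Dcn, Ecm1, Ngfr, Des, Colec11, Pdgfrb and Pdgfra, are genes listed as marking quiescent hepatic stellate cells, and they were found by symbol among the 31053 genes of the deposited tables. Their levels were measured by spatial transcriptomics, in which messenger RNA from a frozen tissue section is captured on a slide carrying 4992 barcoded spots, in 11 sections of mouse liver. Sections 2, 3 and 4 came from uninjured liver (0 h). The other 8 came from liver after an injected overdose of acetaminophen (APAP), a drug that kills hepatocytes around the central vein, with 2 sections (A and B) for each of the 24 h and 36 h times and 4 (A to D) for 48 h. The labels give tissue, injury and time but no genotype, strain, age or sex. The study's methods describe mice at least 8 weeks old, fasted before APAP, and 1 mouse per time point for this assay. Sections of a group therefore share a mouse, p-values measure only the spread between sections, and a difference between times cannot be told apart from a difference between mice.

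Stellate cells lie between the sinusoidal endothelium and the hepatocytes, where they store vitamin A as retinyl esters and act as pericytes. After liver injury they can turn into myofibroblasts, contractile cells that lay down collagen. The 10 genes cover several of the cells' roles. Lrat makes retinyl esters, Reln, Ecm1 and the small leucine-rich proteoglycan Dcn are secreted into the matrix, Colec11 is a soluble lectin that starts complement activation, Pdgfra, Pdgfrb and Ngfr are receptors for platelet-derived growth factor (PDGF) and neurotrophins, Des is an intermediate filament protein and Rgs5 shortens G protein signals in pericytes. Other mesenchymal cells, such as portal fibroblasts and smooth muscle cells, also use several of these genes.

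Between 1490 and 3466 spots per section passed the filters, with 31292663 to 67045372 unique molecular identifiers (UMIs, 1 per captured transcript) per section and 15168.5 to 29950 in the median spot. A spot holds several cells, so fewer cells of a type and less RNA per cell cannot be told apart here. Spots with at least 10000 UMIs were thinned to that number, which left out 2 to 506 shallower spots per section. At least 1 member was found in 93.53 to 99.39% of the thinned spots of each section, so no class of stellate spots was made. Spots outside the tissue held 10.7 to 24.9% of a section's UMIs. A member's share of the UMIs there was 0.704 times its share in the tissue in the median of 30 values at 0 h. At 48 h it was 0.823 times in the median of 40. These ratios compare shares of UMIs, not amounts per spot. RNA had thus spread over the slide, and its part in contrasts between spots was not tested. Other stellate genes were found too. Of a list of 18, including Hgf, Colec10 and Adamtsl2, 17 passed the filter on low counts, and their summed level was 415 to 468 CPM at 0 h, CPM being counts scaled to a fixed total per section. All 10 members passed it in every comparison.

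Across time the members did not move together. At 24 h, 5 members were lower than in uninjured sections (Colec11, Reln, Lrat, Ecm1 and Dcn) and 3 were higher (Des, Pdgfrb and Ngfr), whereas Rgs5 and Pdgfra did not pass the test. At 36 h the same 5 were lower, and Des and Pdgfrb were higher. At 48 h only Ecm1 and Colec11 among the 10 were lower, and Pdgfra had joined Des and Pdgfrb among the higher ones. A gene was called at an adjusted p (Benjamini-Hochberg) under 0.05 in edgeR's quasi-likelihood test over all genes, with levels scaled by TMM, which sets the bulk of genes equal between sections. Many other genes changed as well. Of 14821 genes tested, 23.1% passed as higher and 18.6% as lower at 24 h. These shares were 16.8% and 12.4% at 36 h and 23.3% and 20.9% at 48 h. With 3 higher and 2 lower, the 48 h counts of the 10 members lie close to the shares over all genes. So do the members' higher counts at the earlier times. Only their lower counts, 5 at each earlier time, exceed the share, and whether by more than chance was not tested. All of these comparisons share the uninjured sections. The median change of the 10 members was -0.95 at 24 h, -0.32 at 36 h and 0.18 at 48 h on the log2 scale, beside 0.05, 0.05 and 0.01 over all genes tested.

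**Figure D1:**
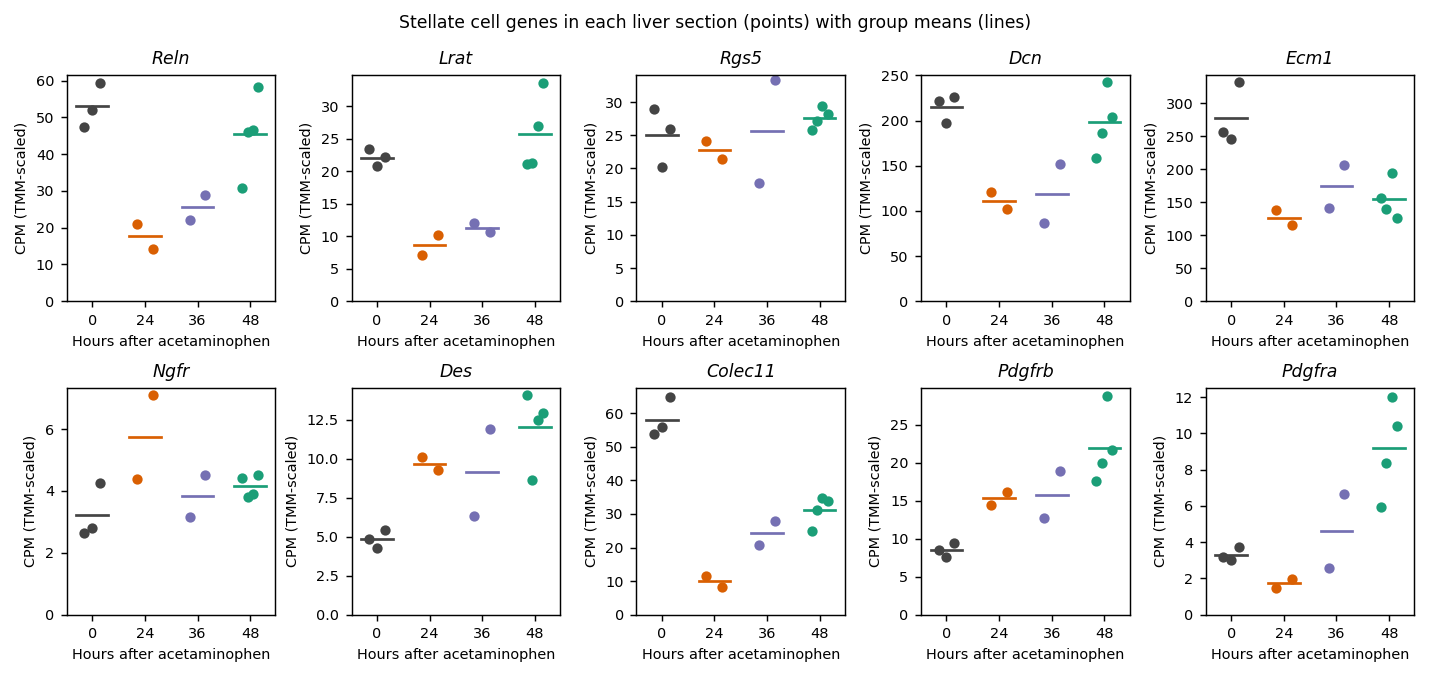
TMM-scaled CPM of each gene (y axes, starting at 0) in each of the 11 sections (points) by hours after acetaminophen (x axes), with lines at the group means. Colec11, Reln and Lrat have both 24 h sections below all 3 uninjured sections, whereas Pdgfrb, Pdgfra and Des have all 4 sections at 48 h above them.

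Colec11, the complement lectin, fell most. Its level was 53.8, 55.9 and 64.8 CPM in uninjured sections 2, 3 and 4, 11.4 and 8.36 CPM in 24 h sections A and B, 20.9 and 27.8 CPM at 36 h, and 25.0, 31.1, 34.8 and 33.8 CPM in sections A to D at 48 h. No injured section reached the lowest uninjured one. The log2 fold change against 0 h was -2.55 ± 0.21 (SE) at 24 h (adjusted p = 2.87e-05, edgeR), -1.26 ± 0.19 at 36 h and -0.90 ± 0.15 at 48 h. Between 24 h and 36 h it rose again, by 1.29 ± 0.21 (adjusted p = 0.00593, edgeR), and it was the 1 member called among 7.04% of all genes called higher in that step. The call for Colec11 in that step was lost when 24 h and 36 h alone were fitted (adjusted p = 0.133, edgeR). It was also lost when the injured sections alone were fitted with a term for the section letter (0.0685). Its close relative Colec10, which pairs with Colec11 in blood, also stood lower, at 21.3 ± 0.86 CPM (SD, n = 3) at 0 h, 7.46 ± 0.58 (n = 2) at 24 h and 8.12 ± 1.49 (n = 4) at 48 h.

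Lrat, the enzyme of retinyl ester storage, fell and came back. It stood at 23.4, 20.7 and 22.2 CPM at 0 h, 7.05 and 10.2 CPM at 24 h, 11.99 and 10.6 CPM at 36 h, and 21.04, 21.2, 26.9 and 33.5 CPM at 48 h. The 24 h and 36 h sections lay below every other section, and the 48 h values overlapped the uninjured ones. Its log2 fold change was -1.36 ± 0.22 at 24 h (adjusted p = 0.000881, edgeR) and -0.97 ± 0.22 at 36 h (0.0686 without 36 h section B), and at 48 h it was 0.22 with a 95% interval of -0.17 to 0.60. From 36 h to 48 h Lrat rose by 1.19 ± 0.21 (adjusted p = 0.022, edgeR), the 1 member called where 1.62% of all genes were called higher. That call was lost without 36 h section A (adjusted p = 0.0599), 36 h section B (0.0525), 48 h section B (0.0501) or 48 h section C (0.057), and when 36 h and 48 h alone were fitted (0.106).

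Reln, a secreted glycoprotein, and Dcn followed a similar course, but their rise from 36 h to 48 h did not pass the test. Reln was at 47.5, 52.1 and 59.4 CPM at 0 h, 21.1 and 14.2 CPM at 24 h, 22.1 and 28.9 CPM at 36 h, and 30.8, 46.0, 46.6 and 58.3 CPM at 48 h. All 4 sections at 24 h and 36 h were lower than every uninjured and every 48 h section, by -1.58 ± 0.26 (log2, adjusted p = 0.00101, edgeR) at 24 h and -1.06 ± 0.26 at 36 h against 0 h. The 36 h call for Reln was lost without 36 h section A (0.0681). Dcn was at 221, 198 and 226 CPM at 0 h, 121 and 102 CPM at 24 h, 86.2 and 152 CPM at 36 h, and 159, 186, 243 and 204 CPM at 48 h. It was lower by -0.95 ± 0.24 at 24 h (adjusted p = 0.00838, edgeR), a call that was lost without 24 h section B (0.0722), and by -0.85 ± 0.24 at 36 h, lost without uninjured section 2 (0.0536), uninjured section 4 (0.0503) or 36 h section A (0.0977). From 36 h to 48 h the log2 change was 0.83 ± 0.24 for Reln (adjusted p = 0.0932, edgeR) and 0.73 ± 0.22 for Dcn (0.102). At 48 h the interval of the log2 difference from 0 h was -0.68 to 0.23 for Reln and -0.54 to 0.30 for Dcn.

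Ecm1, extracellular matrix protein 1, stayed lower. It was at 256, 246 and 333 CPM at 0 h, 138 and 115 CPM at 24 h, 141 and 207 CPM at 36 h, and 157, 140, 194 and 126 CPM at 48 h. All 8 injured sections lay below the uninjured ones. The log2 fold change was -1.14 ± 0.23 at 24 h, -0.68 ± 0.22 at 36 h and -0.85 ± 0.18 at 48 h, with adjusted p (edgeR) of 0.0026, 0.0424 and 0.00344. The 36 h call was lost without any 1 of the 3 uninjured sections, without 36 h section A, and without 48 h section A or B, with adjusted p between 0.0523 and 0.208.

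The PDGF receptors and Des rose. Pdgfrb was at 8.52, 7.56 and 9.41 CPM at 0 h, 14.5 and 16.2 CPM at 24 h, 12.7 and 18.9 CPM at 36 h, and 17.6, 19.95, 28.8 and 21.6 CPM at 48 h, so that every injured section was above every uninjured one. Its log2 fold change was 0.85 ± 0.22, 0.90 ± 0.22 and 1.38 ± 0.19 at the 3 times, with adjusted p (edgeR) of 0.00933, 0.012 and 0.000281. The call at 24 h was lost without 24 h section B (0.0623) and that at 36 h without 36 h section B (0.13). Des, the filament protein, was at 4.86, 4.27 and 5.39 CPM at 0 h, 10.1 and 9.25 CPM at 24 h, 6.34 and 11.9 CPM at 36 h, and 14.0, 8.62, 12.5 and 12.9 CPM at 48 h. All injured sections were above the uninjured ones, the injured groups overlapped each other, and the log2 fold change was 1.003 ± 0.26, 0.92 ± 0.26 and 1.31 ± 0.22. The call for Des at 24 h was lost without 24 h section A (0.0596), and that at 36 h without uninjured section 2 (0.0631), uninjured section 3 (0.0773) or 36 h section B (0.298).

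Pdgfra rose later than Pdgfrb. It was at 3.15, 3.0 and 3.73 CPM at 0 h, 1.46 and 1.98 CPM at 24 h, 2.55 and 6.65 CPM at 36 h, and 5.92, 8.35, 11.98 and 10.4 CPM at 48 h. The 48 h sections were all above the uninjured ones, with a log2 fold change of 1.48 ± 0.32 (adjusted p = 0.00417, edgeR). Both 24 h values lay below the uninjured ones, but the difference of -0.94 ± 0.41 did not pass the test (adjusted p = 0.0886). Whether the course of Pdgfra differed from that of Pdgfrb was not tested. Of the 4 PDGF ligands, Pdgfb, which binds both receptors, was at 1.32 ± 0.22 CPM (SD, n = 3) at 0 h, 7.11 ± 0.77 (n = 2) at 24 h, 2.69 ± 0.15 (n = 2) at 36 h and 2.67 ± 0.24 (n = 4) at 48 h. It was called higher at 24 h (2.44 ± 0.18 on the log2 scale) and at 48 h (1.02 ± 0.16), and it was the 1 ligand called at 48 h.

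Ngfr was called at 24 h alone and Rgs5 at no time. Ngfr, the low-affinity neurotrophin receptor, was at 2.64, 2.80 and 4.26 CPM at 0 h, 4.39 and 7.11 CPM at 24 h, 3.16 and 4.51 CPM at 36 h, and 4.43, 3.80, 3.89 and 4.51 CPM at 48 h. It was called higher at 24 h (0.83 ± 0.26 on the log2 scale, adjusted p = 0.0265, edgeR), but the call was lost without uninjured section 2 (0.103), uninjured section 3 (0.0987) or 24 h section B (0.295). Rgs5 was at 29.0, 20.3 and 25.9 CPM at 0 h, 24.2 and 21.4 CPM at 24 h, 17.8 and 33.4 CPM at 36 h, and 25.9, 27.2, 29.4 and 28.2 CPM at 48 h. Its groups overlapped at every time, and the 95% interval of its log2 difference from 0 h was -0.63 to 0.37 at 24 h, -0.47 to 0.53 at 36 h and -0.27 to 0.56 at 48 h.

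**Figure D2:**
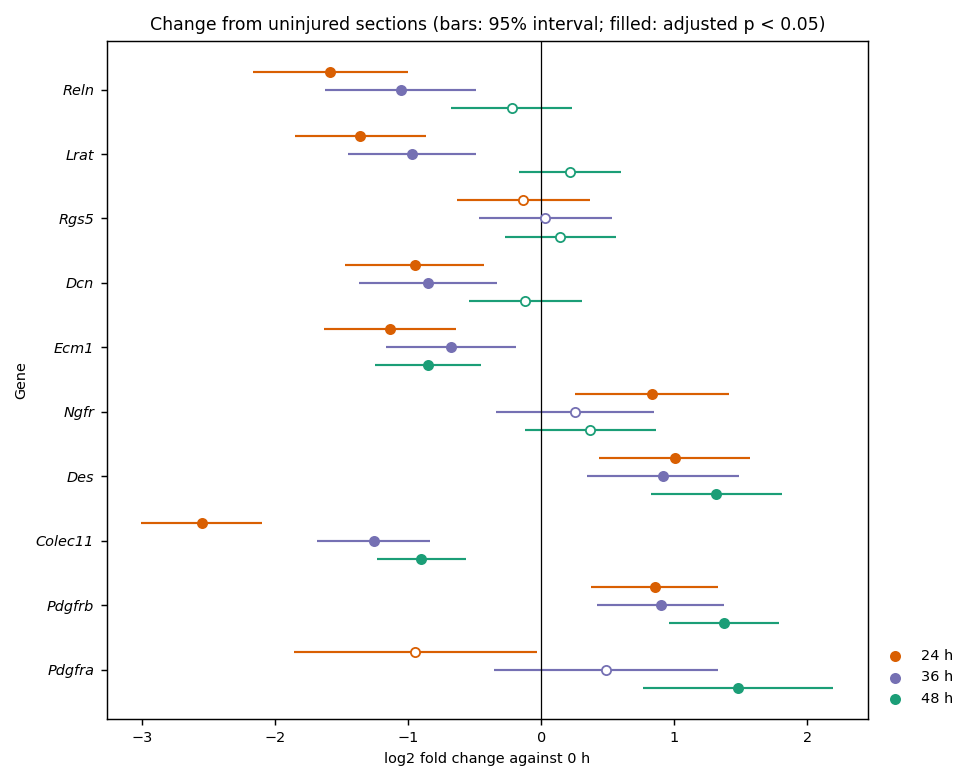
Log2 fold change of each gene against the uninjured sections (x axis) at 24 h, 36 h and 48 h (colours), with 95% intervals as bars, filled points for adjusted p under 0.05 and open points otherwise. Colec11, Reln, Lrat, Dcn and Ecm1 lie left of 0 at 24 h, and at 48 h Pdgfra (1.48), Pdgfrb (1.38) and Des (1.31) lie farthest right.

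Part of this picture rests on the scaling. TMM compares a gene with the bulk of genes, whereas scaling by total UMIs compares it with all RNA captured, and under the latter the median gene stood 0.37, 0.49 and 0.54 (log2) higher at 24 h, 36 h and 48 h than at 0 h. Of all genes, 41.1% were then called higher and 10% lower at 24 h, 47.7% and 2.98% at 36 h, and 60.2% against 4.04% at 48 h. With total scaling, the members' split at 24 h was again 3 higher and 5 lower, at 36 h it was 3 higher and 1 lower, and at 48 h it was 6 higher and 0 lower. The rise of Des, Pdgfrb and Pdgfra at 48 h was then 1.84, 1.91 and 2.01, and the fall of Colec11 at 24 h was -2.22. Ecm1 and Colec11 at 48 h were at -0.32 (adjusted p = 0.137, edgeR) and -0.37 (0.0503), and Lrat, Ngfr and Rgs5 were called higher, by 0.75, 0.90 and 0.67. The 2 sections at 36 h differed too, with section A below section B for 9 of the 10 members, all but Lrat. Without 36 h section B the count of members called at 36 h was 4 in place of 7, and it was also 4 without uninjured section 2. At 24 h it was 5 in place of 8 without 24 h section B.

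The upstream sequence of members that moved apart is given for 2 that were lower at 24 h, Lrat and Ecm1, and 1 that was higher, Des. RefSeq's table (GRCm38.p6) held a start site for 8 of the 10 members, and the 250 bases before it were searched on both strands for 8 short motifs bound by broad classes of factors. Capitals mark the matches, and bases run 5′ to 3′ on the gene's strand. The windows are chr3:82903975-82904224, minus strand, for Lrat, chr3:95739570-95739819, minus strand, for Ecm1 and chr1:75360042-75360291, plus strand, for Des.
Lrat: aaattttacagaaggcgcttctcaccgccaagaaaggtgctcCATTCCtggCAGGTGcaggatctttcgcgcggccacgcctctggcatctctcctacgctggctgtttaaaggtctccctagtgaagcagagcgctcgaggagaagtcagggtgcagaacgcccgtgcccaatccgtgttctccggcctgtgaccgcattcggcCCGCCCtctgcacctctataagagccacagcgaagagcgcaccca
Ecm1: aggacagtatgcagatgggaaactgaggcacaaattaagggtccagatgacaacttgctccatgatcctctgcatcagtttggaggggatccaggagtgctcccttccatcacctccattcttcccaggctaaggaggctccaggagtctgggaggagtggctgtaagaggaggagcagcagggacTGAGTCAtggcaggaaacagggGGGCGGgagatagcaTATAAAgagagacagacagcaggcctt
Des: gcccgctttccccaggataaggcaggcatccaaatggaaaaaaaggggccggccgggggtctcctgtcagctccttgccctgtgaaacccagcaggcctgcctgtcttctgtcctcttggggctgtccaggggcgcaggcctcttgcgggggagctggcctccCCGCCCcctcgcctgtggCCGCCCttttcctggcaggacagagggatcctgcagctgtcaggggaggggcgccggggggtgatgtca
GGGCGG, the GC box, was found before 5 of the 8 members, Reln, Lrat, Ecm1, Ngfr and Des, beside 32.7% of all 32851 windows. It stood on the opposite strand at both sites of Des and at the site of Lrat. TATAAA was found before Ecm1 only, at 27 to 22 bases before the start, and in 12.4% of all windows. TGACTCA, the site of AP-1 factors, was found before Ecm1 (4.46% of all windows), and GGAATG (12.6%) and CACCTG (17.2%) before Lrat. TGATAA (7.94%), TAATTA (4.84%) and the CArG box (1.47%) were before none of the 8, and none of the searched motifs overlapped another. The transcribed regions lie at chr3:82892579-82903973 for Lrat, chr3:95734147-95739569 for Ecm1 and chr1:75360329-75368579 for Des in the GENCODE M21 annotation of the same build. Those of 6 other members are chr5:21884454-22344702 for Reln, chr1:169655501-169695813 for Rgs5, chr10:97479609-97518143 for Dcn, chr11:95568818-95587735 for Ngfr, chr12:28594173-28623377 for Colec11 and chr5:75152292-75198215 for Pdgfra.

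In uninjured liver the members were spread unevenly along the axis from portal vein to central vein. Spots were scored by 23 pericentral against 12 periportal hepatocyte genes, none of them a member, and the 20% of spots nearest each end were compared within each of the 3 sections. Reln, Dcn, Ecm1 and Lrat were higher in central spots, where 12.0% of 11742 genes tested were, and Ngfr, Pdgfrb and Colec11 were lower there, where 12.7% were. Rgs5, Des and Pdgfra were not called. Reln was at 29.1, 29.9 and 34.0 CPM in the portal spots of sections 2, 3 and 4 and at 46.6, 49.4 and 58.0 CPM in their central spots. The lowest central value exceeded the highest portal one, and the log2 difference was 0.72 ± 0.06 (adjusted p = 2.67e-13, edgeR). Dcn was at 130, 123 and 131 CPM against 200, 177 and 218 CPM, a difference of 0.62 ± 0.04.

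The receptors Ngfr and Pdgfrb showed the opposite slope. Ngfr was at 2.5, 2.7 and 4.5 CPM in portal and 1.2, 1.3 and 1.9 CPM in central spots (-1.09 ± 0.22 on the log2 scale, adjusted p = 0.000195, edgeR). Pdgfrb was at 9.7, 7.2 and 8.4 CPM in portal and 4.2, 4.8 and 5.8 CPM in central spots (-0.77 ± 0.14). In each section both genes were lower in central spots. Markers of cells of the portal tract moved the same way, with 3 of 6 portal fibroblast markers, 2 of 2 smooth muscle markers and 3 of 4 cholangiocyte markers tested lower in central spots and none higher, and their part in the result was not tested. Smaller differences were found for Ecm1 (0.28 ± 0.03), Lrat (0.25 ± 0.09) and Colec11 (-0.24 ± 0.05). The call for Lrat was lost without section 2 (adjusted p = 0.107, edgeR) or section 3 (0.409).

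**Figure D3:**
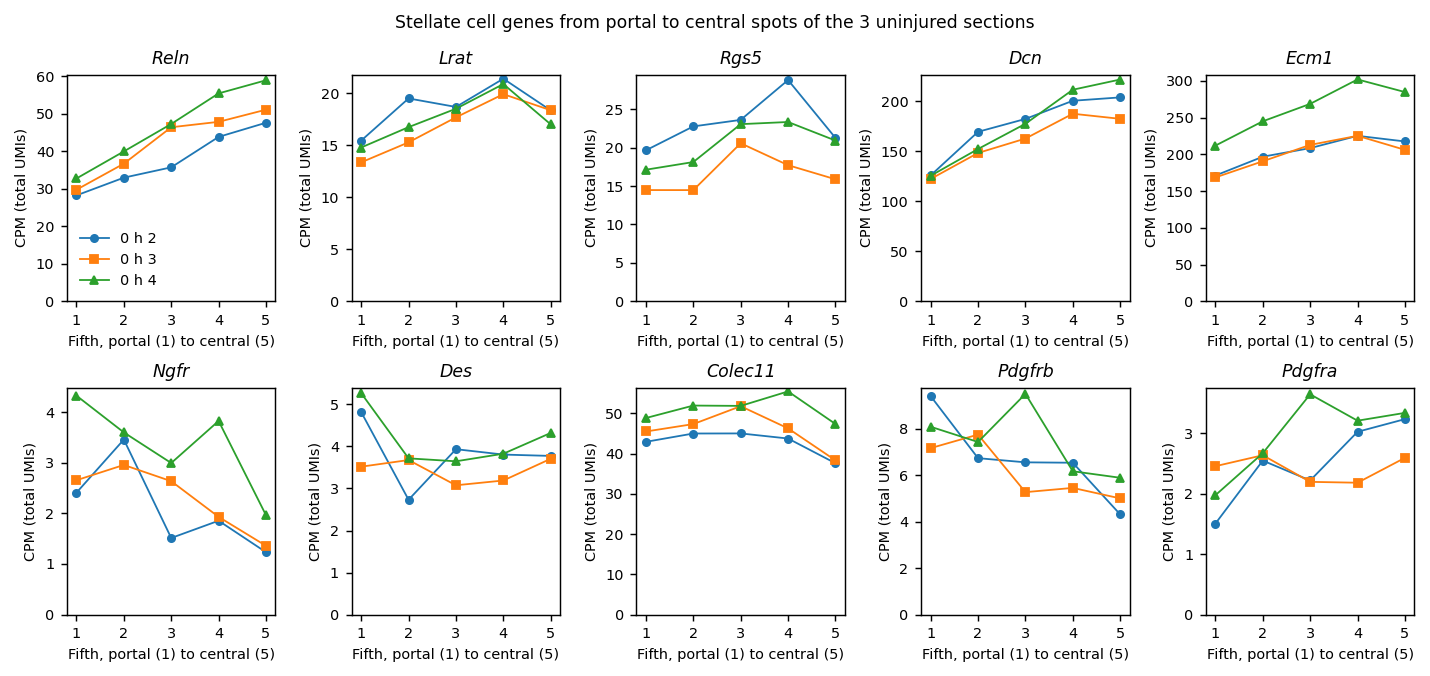
CPM of each gene per total UMIs (y axes, starting at 0) in 5 equal groups of spots from portal (1) to central (5), 1 line for each of the 3 uninjured sections. The mean of Reln climbs over the whole axis, from 30.2 to 52.6 CPM, and that of Pdgfrb declines from 8.22 to 5.07 CPM. Dcn climbs from 125 to 200 CPM in group 4 and has 203 CPM in group 5.

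Lrat and Ecm1 did not climb over the whole axis. The mean of Lrat over the 3 sections was 14.5, 17.2, 18.3, 20.7 and 17.9 CPM from the most portal to the most central 20% of spots. Ecm1 had 184, 211, 230, 251 and 236 CPM. Both were highest in group 4 of the 5, and whether groups 4 and 5 differ was not tested. Dcn changed little over that last step, with 200 ± 12.0 and 203 ± 19.7 CPM (SD, n = 3) in groups 4 and 5.

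After injury, the tissue holds areas that have lost hepatocytes. To ask where the members lay relative to these, the 10% of spots of each section with the lowest score of 10 hepatocyte genes (hepatocyte-low) were compared with the 50% with the highest score (other spots) within sections. The members are not in the score, but a spot low in hepatocyte RNA holds a larger share of all other RNA by construction, so calls under total UMI scaling are given beside those under TMM. In uninjured sections 6 members were higher in hepatocyte-low spots, Pdgfra, Lrat, Dcn, Rgs5, Reln and Colec11, where 5.87% of 13974 genes tested were, and none was lower. The log2 difference was 0.998 ± 0.28 for Pdgfra, 0.85 ± 0.20 for Lrat, 0.73 ± 0.10 for Dcn, 0.65 ± 0.14 for Rgs5, 0.53 ± 0.10 for Reln and 0.38 ± 0.12 for Colec11. Under total scaling these 6 and Pdgfrb (0.67, adjusted p = 0.0421, edgeR) were called higher, with 8.15% of all genes. These uninjured spots were shallow, with medians of 4257 to 14014.5 UMIs in the 3 sections against 24448.5 to 37320.5 in the other spots, and the part of depth was not tested. Pdgfra rested on 14, 17 and 6 UMIs in the hepatocyte-low spots of sections 2, 3 and 4. Without section 3, 2 members in place of 6 were called, and without section 2 the calls for Colec11 (adjusted p = 0.183, edgeR) and Pdgfra (0.0669) were lost.

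In injured sections Colec11 and Rgs5 had the opposite sign under TMM, and Des and Ngfr were called as well. At 24 h Des was higher in hepatocyte-low spots (0.86 ± 0.23 on the log2 scale), as 14.7% of genes were, and Colec11 (-1.25 ± 0.26), Ngfr (-0.97 ± 0.27) and Rgs5 (-0.53 ± 0.17) were lower, as 19.3% were. At 36 h Des (1.54 ± 0.23), Pdgfra (0.83 ± 0.24) and Pdgfrb (0.60 ± 0.18) were higher, with 17.1% of all genes, and Colec11 (-1.24 ± 0.19), Ngfr (-0.92 ± 0.33) and Rgs5 (-0.58 ± 0.17) were lower, with 18.8%. Ngfr rested on few UMIs in hepatocyte-low spots, 17 and 16 in 24 h sections A and B and 5 and 16 in 36 h sections A and B. Depth was alike here, with medians of 16525 to 27469 UMIs in the hepatocyte-low spots of the injured sections and 15378 to 28485 in their other spots. Under total scaling 5 members were higher at each of 24 h and 36 h, where 38.5% and 41.8% of all genes were, and 1, Colec11, was lower (-0.81 at both times), where 5.81% and 6.9% were. The 5 of 10 are thus near the share over all genes. With the lowest 5% of spots in place of 10%, the calls for Ngfr (adjusted p = 0.19, edgeR) and Rgs5 (0.0576) at 24 h and for Ngfr at 36 h (0.0531) were lost, and with scores on unthinned spots that for Rgs5 at 36 h (0.0681). Without 24 h section B, 1 member in place of 4 was called at 24 h, with Des (adjusted p = 0.0963, edgeR), Ngfr (0.109) and Rgs5 (0.087) lost, and Rgs5 was also lost without 24 h section A (0.207). At 36 h the calls for Pdgfra (0.342) and Pdgfrb (0.452) were lost without 36 h section B, and those for Rgs5 (0.189) and Ngfr (0.624) without 36 h section A.

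**Figure D4:**
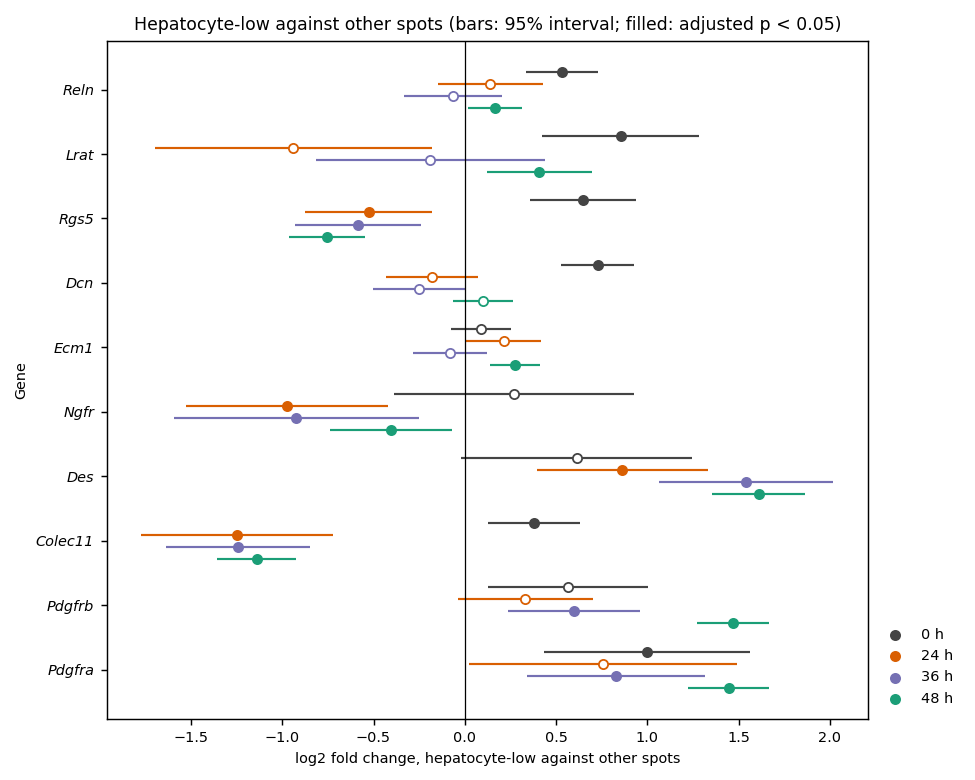
Log2 fold change of each gene in hepatocyte-low against other spots (x axis, TMM-scaled) at 0 h, 24 h, 36 h and 48 h (colours), with 95% intervals as bars, filled points for adjusted p under 0.05 and open points otherwise. Colec11 and Rgs5 lie right of 0 in uninjured sections (0.38 and 0.65) and left of it at 48 h (-1.14 and -0.76).

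At 48 h, with 4 sections, 6 members were higher in hepatocyte-low spots, as 35.8% of genes were, and 3 were lower, as 32.6% were. Des was at 38.7, 18.2, 21.03 and 29.1 CPM in the hepatocyte-low spots of sections A to D and at 8.5, 6.9, 10.3 and 9.0 CPM in the other spots, a log2 difference of 1.61 ± 0.12 (adjusted p = 1.07e-11, edgeR). Pdgfrb was at 37.5, 43.5, 55.7 and 46.6 CPM against 13.9, 14.2, 21.7 and 16.5 CPM (1.47 ± 0.10). Pdgfra was at 12.3, 15.9, 20.1 and 21.5 CPM against 4.2, 5.6, 9.0 and 7.0 CPM (1.45 ± 0.11). For these 3 genes the lowest hepatocyte-low value exceeded the highest value of the other spots. Under total scaling the differences were 2.18, 2.04 and 2.01, with the median of all genes tested at 0.60. That scaling called 7 members higher and 1 lower, beside 65.9% and 13.6% of all genes. The 7 of 10 are thus near the share over all genes.

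Colec11 went the other way at 48 h, as did Rgs5 under TMM. Colec11 was at 14.8, 15.8, 16.5 and 26.3 CPM in hepatocyte-low and at 31.8, 40.6, 47.5 and 41.7 CPM in other spots, without overlap (-1.14 ± 0.11 on the log2 scale, adjusted p = 2.51e-10, edgeR), and it was lower under total scaling as well (-0.57). Rgs5 was at 22.4, 19.2, 16.8 and 21.2 CPM against 29.999, 32.6, 38.9 and 33.8 CPM (-0.76 ± 0.10), but under total scaling the difference was -0.19 and was not called. Ngfr was lower by -0.41 ± 0.17 (adjusted p = 0.029, edgeR), and here total scaling turned the sign, to 0.16. Among the others, Lrat (0.41 ± 0.13), Ecm1 (0.27 ± 0.07) and Reln (0.16 ± 0.07, adjusted p = 0.0438, edgeR) were higher, and Dcn had 0.10 ± 0.08. The call for Reln was lost without any of 8 sections, the 48 h sections A, B and D among them, and that for Lrat without 48 h section D (0.097). The call for Ngfr was lost without any 1 of the 4 sections at 48 h (adjusted p between 0.0565 and 0.105) and with scores on unthinned spots (0.152), and that for Reln also with the lowest 5% of spots (0.591).

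The size of the difference itself was compared between 48 h and 0 h. It was lower at 48 h for Colec11 (-1.52 ± 0.16 on the log2 scale), Rgs5 (-1.40 ± 0.18), Dcn (-0.63 ± 0.13) and Reln (-0.37 ± 0.12), as for 18.7% of genes, and higher for Des (0.998 ± 0.31) and Pdgfrb (0.91 ± 0.22), as for 16.3%. Colec11 (-1.06) and Rgs5 (-0.93) kept this under total scaling, and Des (1.46) and Pdgfrb (1.37) did too, whereas Dcn (-0.17) was not called and Reln was at 0.095. The change for Pdgfra, 0.45 with an interval of -0.12 to 1.01, was not called under TMM. Total scaling called it (0.92, adjusted p = 0.0046, edgeR) and that for Ecm1 (0.65, adjusted p = 1.22e-06, edgeR). It thus called 4 members higher and 2 lower, beside 42.3% and 9.45% of all genes, with the median gene at 0.54. Under TMM without uninjured section 2, 3 members were called in place of 6, with the calls for Reln (adjusted p = 0.158, edgeR), Des (0.086) and Pdgfrb (0.099) lost. Des was also lost without uninjured section 3 (0.0552) and with the lowest 5% of spots (0.137), and Reln without 48 h section C (0.0622).

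Levels by distance were read on the scale of total UMIs, so they are no check of the TMM calls. Hepatocyte-low spots lay together, with 76.4 to 84.4% of them touching another. At 48 h Pdgfrb stood at 64.8 ± 11.7 CPM (SD, n = 4 sections) within the hepatocyte-low spots, 26.1 ± 8.27 in the spots next to them and 17.7 ± 4.60 at 2 spots' distance. Des went from 37.6 ± 12.4 to 14.7 ± 3.13 and 9.15 ± 2.09 CPM, and Pdgfra from 24.7 ± 5.78 to 12.04 ± 4.34 and 7.29 ± 2.44 CPM. Most of the decline was over the first step. Colec11 rose outwards, from 25.8 ± 6.88 to 34.0 ± 3.0 and 39.1 ± 7.35 CPM, and Rgs5 had 28.1 ± 2.92, 32.0 ± 0.31 and 32.9 ± 4.47 CPM. Dcn, not called under TMM at 48 h, declined here, with means of 315.6, 245.5 and 205.8 CPM. Reln (72.1, 62.3 and 44.0 CPM), Ecm1 (263.7, 198.7 and 152 CPM) and Lrat (48.8, 31.9 and 25.3 CPM) declined too. Ngfr, called lower under TMM, had 5.21, 4.41 and 5.12 CPM. In uninjured sections Colec11 had its highest mean, 59.8 ± 2.64 CPM (n = 3), in the hepatocyte-low spots and 41.4 ± 3.93 CPM at 4 or more spots' distance.

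**Figure D5:**
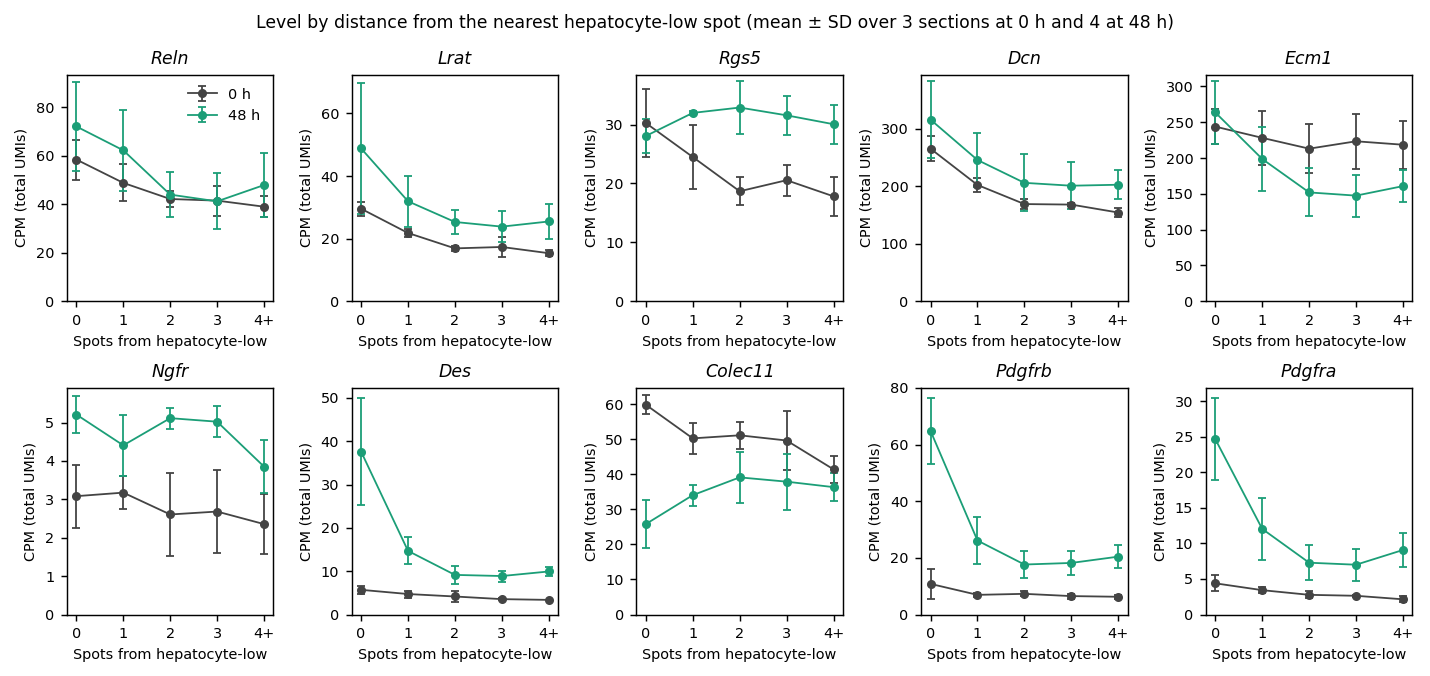
CPM of each gene per total UMIs (y axes, starting at 0; mean with SD bars over 3 sections at 0 h and 4 at 48 h) by distance in spots from the nearest hepatocyte-low spot (x axes; 0 is hepatocyte-low, 4+ is 4 or more). At 48 h Pdgfrb, Des and Pdgfra fall steeply over the first step, from 64.8 to 26.1 CPM for Pdgfrb, whereas Colec11 is lowest in the hepatocyte-low spots at 25.8 CPM.

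Other cell types were present in the same spots. In the hepatocyte-low spots at 48 h, 10 of 10 genes of stellate cell activation were higher (median 2.55 on the log2 scale), 4 of 4 phagocyte markers, 6 of 7 portal fibroblast markers tested, 5 of 5 smooth muscle markers tested and 5 of 7 endothelial markers, and 6 of 6 hepatocyte markers were lower. Their part in the members' values was not tested. In whole sections the portal fibroblast markers summed to 12.4 to 14.1 CPM at 0 h and 25.7 to 52.8 CPM at 48 h, the smooth muscle markers to 3.28 to 3.68 and 7.57 to 21.2 CPM, the endothelial markers to 247 to 283 and 207 to 264 CPM, and the phagocyte markers to 409 to 435 and 722 to 1330 CPM. The portal fibroblast, smooth muscle and phagocyte lists thus stood higher in all 48 h sections, beside the rise of Pdgfra and Pdgfrb.

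Spots rich in myofibroblast RNA at 48 h, the 10% with the highest score of Acta2, Col1a1, Col1a2 and Col3a1, overlapped this picture. The other spots were here those with the lowest score of these genes, not those with the highest hepatocyte score. Spots in between were left out. Compared with the other spots, 7 members were higher, with 34.5% of 13017 genes, and 2 were lower, with 33.5%. Des (1.78 ± 0.24 on the log2 scale), Pdgfrb (1.56 ± 0.07) and Pdgfra (1.48 ± 0.09) led, followed by Lrat (0.52 ± 0.12), Ecm1 (0.32 ± 0.06), Reln (0.30 ± 0.06) and Dcn (0.24 ± 0.08). Dcn lost its call without 48 h section D (adjusted p = 0.16, edgeR). Colec11 (-0.93 ± 0.09) and Rgs5 (-0.60 ± 0.11) were lower, and total scaling left Colec11 lower (-0.42) and Rgs5 not called (-0.09). Total scaling called 7 members higher and 1 lower, beside 65.8% and 13.9% of all genes, with the median gene at 0.52. Ngfr had -0.19 ± 0.14, and 0.32 under total scaling. Lrat was at 34.3, 26.3, 42.0 and 69.6 CPM in the rich spots of sections A to D and at 24.4, 27.2, 30.4 and 36.0 CPM in the other spots. It was higher in 3 of 4 sections, lower in section B, and the difference was 0.34 without section D.

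Genes that work with the members were read from lists, and their counts stand beside the shares of all genes given above, 23.1% higher and 18.6% lower at 24 h and 23.3% and 20.9% at 48 h. Of 10 genes of stellate cell activation, 5 were called higher at 24 h, 10 at 36 h and 10 at 48 h, with none lower. Acta2, the smooth muscle actin of myofibroblasts, was at 2.51 ± 0.50 CPM (SD, n = 3) at 0 h and already at 50.2 ± 10.1 (n = 2) at 24 h, when Col1a1, a collagen I chain, was at 6.04 ± 1.19 CPM. Col1a1 then stood at 194 ± 96.6 CPM (n = 4) at 48 h, against 2.65 ± 0.52 at 0 h. Timp1, a metalloproteinase inhibitor, was the activation gene with the largest change at 48 h (6.74 ± 0.54 on the log2 scale). Of the 17 other stellate genes tested, 0 were higher and 11 lower at 24 h (median -1.49), and 5 were higher and 6 lower at 48 h (median 0.21). Adamtsl2 (1.93 ± 0.38) and Hgf (1.47 ± 0.24), the hepatocyte growth factor, rose most at 48 h, and Hhip (-1.55 ± 0.28), which binds hedgehog ligands, and Colec10 (-1.39 ± 0.13) fell most.

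The pathways of single members were mixed. Of 12 retinoid genes tested beside Lrat, 0 were higher and 5 lower at 24 h, and 3 were higher and 5 lower at 48 h, the higher ones near the share over all genes. Aldh1a2 was higher at 48 h, at 0.60 ± 0.39 CPM and so near the limit of detection, and Cyp26b1 (-1.29 ± 0.46 on the log2 scale) and Aldh1a1 (-0.83 ± 0.17), which degrade and make retinoic acid, were lower. Of 6 genes of the lectin pathway of complement, 4 were lower at 24 h and 5 at 48 h, with none higher, Mbl2 (-1.49 ± 0.18) and Colec10 among them; hepatocytes make several of these. Of 5 small leucine-rich proteoglycans tested beside Dcn, 2 were lower at 24 h and none at 48 h, when 3 were higher, Fmod (1.76 ± 0.58) and Lum (1.55 ± 0.24) most.

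Partners of Ngfr, Reln, Des and Rgs5 were fewer. Of 5 neurotrophin genes tested, 2 were higher at 48 h, Ntrk2 (3.09 ± 0.65 on the log2 scale) among them, and Sort1 (-0.52 ± 0.12) was lower. Of the receptors of reelin, Lrp8 was higher at 48 h, at 1.25 ± 0.52 CPM (SD, n = 4) against 0.031 ± 0.029 CPM (n = 3) at 0 h, and Vldlr lower, at 0.17 ± 0.02 against 1.205 ± 0.49 CPM. The 0 h level of Lrp8 and the 48 h level of Vldlr were near the limit of detection. All 3 intermediate filament genes tested beside Des were higher at 48 h, Vim (3.15 ± 0.39) and Synm (2.44 ± 0.38) most. Of 6 relatives of Rgs5 tested, 3 were higher at 48 h and none lower, Rgs18 (2.56 ± 0.49) and Rgs1 (1.71 ± 0.31) most.

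Within single spots the members were only loosely tied to each other. Over spots thinned to equal depth, the 45 pairs of members had a median Pearson r of 0.042 at 0 h and 0.044 at 48 h, each pair's r being the median over its sections, and these are sparse counts. The highest was Dcn with Ecm1, at 0.304 at 0 h and 0.168 at 48 h. Against the summed members, the genes most alike over uninjured spots were Bgn (0.286), Igfbp7 (0.283), Plvap (0.26), Tgfbi (0.251), Prelp (0.21), Col14a1, Sod3, Sparc, Abcc9 and Rpl37a. At 48 h they were Col3a1 (0.37), Bgn (0.37), Igfbp7 (0.365), Sparc (0.364), Tmsb10 (0.359), Col1a2, Rpl13, Psap, Actg1 and Rps24. Of these lists, 1 gene at 0 h and 2 at 48 h code for collagens. Correlated spots share a library and neighbouring spots share RNA, and Dcn and Ecm1 make up most of the sum.

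Over the 11 sections the course of each member can be set beside that of all 12146 genes with a mean of at least 1 CPM. Nearest to Colec11 were Cd300lg (Pearson r = 0.98) and Tpbgl (0.98), and nearest to Lrat were Itm2a (0.93) and Aard (0.93). Reln was nearest to Atxn7l1 (0.98) and Casp8 (0.96), Dcn to Ptpa (0.97) and Ms4a4d (0.96), and Ecm1 to Psme2 (0.97) and Yipf1 (0.94). Pdgfrb was nearest to Emp3 (0.99) and Cmtm7 (0.99), Pdgfra to Ltbp3 (0.99) and Nsg1 (0.99), and Des to 2510009E07Rik (0.97) and Tpm2 (0.96). For Ngfr they were Rab35 (0.98) and Irak4 (0.95), and for Rgs5 Sptbn1 (0.90) and Tspan13 (0.89). These are the highest of many values over sections that fall into 4 times, so they describe a shared course over time and are no test.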

How the data were processed

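Visium 3′ libraries from 11 frozen sections of mouse liver were analysed, grouped by the injury and time in the labels. The authors deposited unfiltered UMI counts of 31053 genes per spot, made with Space Ranger 1.0.0 on mm10 (per the labels, which also name Seurat 4.1.1), with a table of spot positions. As in the study's methods, tissue spots with fewer than 800 genes or with over 20% of UMIs from mitochondrial genes were dropped, 0 to 103 per section. Counts were summed per section and tested with edgeR 4.0.16 (R 4.3.3; filterByExpr, TMM, robust quasi-likelihood fit over all 11 sections, Benjamini-Hochberg adjustment over all genes tested). Levels are CPM after TMM (factors 0.78 to 1.17) unless given per total UMIs. Total counts were 31292663 to 67045372 per section. For section sums the number of sections, 2 to 4 per time, thus limits precision more than counting. In regions some members had few UMIs, as given above, and there counting limits precision too.

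Regions were scored on spots thinned to 2000 UMIs. The central-portal and hepatocyte scores used the mean log of UMIs per 10000. The myofibroblast score was the summed share of a spot's UMIs from its genes, without a log. Summed counts were fitted with the section as a block. The score genes included no member. Replicate sections of a time differed by more than sampling noise (chi-square per gene 39.7 to 212). Every member is named. Of each other list, counts are given with at most 2 genes called higher and 2 called lower at 48 h by size. Some genes that this rule names are not reported here. The members, lists and tests were chosen with earlier results of these data known. Alternatives were DESeq2 1.42.0 (its size factors and its Wald test), total-count scaling, other filters on genes and spots, other region widths, unthinned scores and leaving out each section. The fits of section sums were tested on simulated counts, which had less spread between sections than the data.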

Additional observations from a re-analysis of the deposited data

Results flagged for a closer look

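The difference between hepatocyte-low and other spots was tested for a change between 48 h and 0 h, and 6 members passed. The change on the log2 scale was -1.52 for Colec11, -1.40 for Rgs5, -0.63 for Dcn and -0.37 for Reln, and 0.998 for Des and 0.91 for Pdgfrb (edgeR, adjusted p = 1.78e-08, 1.11e-07, 0.000175, 0.0151, 0.012 and 0.00145). On TMM-scaled levels Colec11 and Rgs5 were higher in hepatocyte-low spots of all 3 uninjured sections and lower in those of all 4 sections at 48 h. Under total scaling the 48 h difference of Rgs5 was -0.19 and was not called (adjusted p = 0.0777, edgeR). The uninjured hepatocyte-low spots were the shallow ones described above, and the part of their depth was not tested.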

How the results depend on the processing

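Of 1690 values of single members under other settings, 30 turned in direction, 88 lost and 41 gained a call, and the cause was not tested. Total-count scaling turned these log2 differences: 0.19 for Rgs5 at 24 h against 0 h, 0.31 for Reln and 0.41 for Dcn at 48 h against 0 h, 0.015 for Des at 36 h against 24 h, 0.26 for Dcn in hepatocyte-low spots at 24 h, 0.37 for Reln, 0.24 for Lrat, 0.18 for Dcn and 0.35 for Ecm1 in hepatocyte-low spots at 36 h, 0.16 for Ngfr in those at 48 h, 0.095 for Reln and 0.020 for Lrat in the change of that difference between 48 h and 0 h, and 0.32 for Ngfr in myofibroblast-rich spots. Under it 4 members in place of 7 were called at 36 h against 0 h and 2 in place of 1 at 36 h against 24 h. DESeq2's Wald test called 2 members at 36 h against 24 h and 3 at 48 h against 36 h, where 8.43% of all genes were called in place of 3.05%. With no low-count filter Rgs5 at 36 h against 0 h was at -0.0027. Fits of the pair of times alone called 4 members at 36 h against 0 h and 0 at 36 h against 24 h and at 48 h against 36 h (edgeR; 2 and 4 at an unadjusted p under 0.05), and 0.00727% and 0% of all genes in these steps, where fewer sections set the spread.

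The labels do not say what sections with the same letter at different times share. Their deviations from the group means correlated at 0.367 (24 h and 36 h), -0.143 and -0.159 (24 h and 48 h) and 0.0936 and -0.287 (36 h and 48 h). With a replicate block by letter, 0 members were called at 36 h against 24 h and 0 at 48 h against 36 h (edgeR; 2 and 2 at an unadjusted p under 0.05), with 0.557% and 0% of all genes. Uninjured sections carry numbers and could not enter that fit.

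Leaving out 1 section at a time moved the members called to between 5 and 9 at 24 h, 4 and 7 at 36 h, 1 and 2 at 36 h against 24 h, and 0 and 2 at 48 h against 36 h (0 without 36 h section A, 48 h section B or 48 h section C, with 1, 6 and 4 at an unadjusted p under 0.05). In hepatocyte-low spots the count was 2 to 6 at 0 h, 1 to 5 at 24 h and 3 to 7 for the change between 48 h and 0 h. A time left with 1 section is assumed to vary like the others. Members whose direction turned ranged, at 36 h against 0 h, from -0.49 to 0.41 (Rgs5), -0.025 to 0.48 (Ngfr) and -0.36 to 1.015 (Pdgfra). At 36 h against 24 h the ranges were -0.32 to 0.55 (Rgs5), -0.33 to 0.45 (Dcn), -0.57 to 0.29 (Des) and -0.24 to 0.31 (Pdgfrb). At 48 h against 36 h they were -0.27 to 0.63 (Rgs5), -0.42 to 0.12 (Ecm1) and -0.11 to 0.39 (Ngfr). In hepatocyte-low spots they were -0.046 to 0.23 (Reln, 24 h), -0.64 to 0.22 (Lrat, 36 h) and -0.044 to 0.19 (Dcn, 48 h). Most of these turned without a 36 h section. At the settings of the report none of these members was called in the comparison where it turned, apart from Reln (change between 48 h and 0 h) and Ngfr (48 h) in the total-count values above, and total-count scaling called Reln and Ecm1 in the turned direction at 36 h (adjusted p = 0.0222 and 0.00245, edgeR). Depth limits Pdgfra, Ngfr and Des most, since they had the lowest levels.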
